A study of Mus musculus with 21 samples.

Results

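The members of this comparison were the 4 columns PS/E4H 1 to 4 and the 3 columns E4H 1 to 3 of a count matrix of mouse forebrain RNA, chosen by their labels, so 7 of the 21 mice of the series were used. E4H mice were homozygous for a targeted replacement of mouse Apoe by human APOE4, kept on C57BL6, and were 9 to 10 months old. PS/E4H mice were homozygous for the same replacement and heterozygous for the PS19 transgene, which is human tau with the P301S mutation under the mouse prion protein promoter. The PS19 line was kept on B6/C3H and was crossed for 2 generations to APOE homozygotes, and these mice were killed at hindlimb paralysis. The transgene, the paralysis, the age at death and any remaining C3H alleles cannot be told apart in this design. Neither group has a normal mouse Apoe gene, and the transgene is driven by a promoter that is active in most neurons and in many other cells. The remaining 14 mice carried human APOE3 (E3H and PS/E3H) or human APOE2 (E2H and PS/E2H), and they enter only where the backgrounds are set side by side. Their parental groups were also 9 to 10 months old, and their PS19 groups were also killed at paralysis. In its survival cohorts, the paper reports a longer time to paralysis for PS/E3H than for PS/E4H.

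Tau binds microtubules in axons, and mutant human tau aggregates in PS19 neurons. The line also shows gliosis and loss of neurons. Microglia, the macrophages of the brain parenchyma, respond to damaged neurons and to lipid debris with a program that depends on the receptor TREM2 and its adaptor TYROBP, while astrocytes respond with intermediate filaments and acute phase proteins. APOE carries lipid between these cells, and its human alleles differ in how well they do so.

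Levels of 1 gene are given in CPM, which are counts scaled by effective library size. Levels of different genes are compared only per length, in FPKM, which are fragments scaled by transcript length and library size. Summed levels of a list are also given in CPM, but there counts are scaled by the plain total of the library. The forebrain label was checked first. All 10 listed forebrain genes, among them the transcription factor Emx1, passed a filter on low counts, and the most abundant per length was Slc17a7, the vesicular glutamate transporter of cortical neurons, with a mean of 174 FPKM in E4H and 128 FPKM in PS/E4H. Their summed level was 1285, 1533 and 1293 CPM in E4H 1 to 3 and 998, 876, 1017 and 1121 CPM in PS/E4H 1 to 4. Of 15 listed genes of cerebellum, hindbrain and spinal cord, only 6 passed the filter, the most abundant per length was the choline transporter Slc5a7, and Hoxb6, Hoxb8 and Mnx1 had 0 counts in all 7 mice. That list summed to 16.6, 13.9 and 16.5 CPM in E4H and 16.8, 26, 23.5 and 16.2 CPM in PS/E4H, which overlap, and with none called it had a median log2 fold change of 0.33. Its highest counts in a mouse were 899 for Slc5a7 and 442 for Chat, against at most 192 for any other member. The member En1 did not pass (log2 fold change 2.24, adjusted p = 0.18). Slc6a4 and Tph2, genes of serotonin neurons outside the list, were raised and are given below. The part of hindbrain tissue in the results was not tested. Hoxc10, a posterior gene outside the list that was picked after its values were seen, was called lowered, at 34, 12 and 19 counts in E4H and 0, 0, 0 and 4 counts in PS/E4H (adjusted p = 0.032).

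The sexes matched the methods of the study in PS/E4H and not in E4H. Xist, the RNA that silences the inactive X chromosome of females, was at 30851, 36358 and 189 counts in E4H 1 to 3 and at 164, 14782, 16504 and 168 counts in PS/E4H 1 to 4. Ddx3y, a gene of the Y chromosome, was at 0, 6 and 4246 and 3692, 14, 21 and 4197 counts in the same order. E4H 1 and 2 and PS/E4H 2 and 3 therefore carried the female pattern, and E4H 3 and PS/E4H 1 and 4 the male pattern. The methods name males throughout apart from 1 female E4H, 2 female PS/E4H and 1 female PS/E2H mouse, and the counts gave 2 mice of each pattern in PS/E4H, which fits that statement, and the sexes exchanged in the other 5 groups of the series. Sex was not a term of the test, and both groups held both patterns.

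Library size also divided the groups. The total was 66983058, 74756427 and 74596977 counts in E4H 1 to 3 and 60883889, 61266610, 63230790 and 63751715 counts in PS/E4H 1 to 4, so every PS/E4H library was smaller than every E4H library. Its part in the results was not tested. Mitochondrial transcripts made up 8.71, 8.25 and 8.68% and 7.88, 9.25, 8.96 and 8.86% of the counts in the same order, and these overlapped. On log2 CPM of all genes tested, the leading principal component held 33.9% of the variance and separated the groups, with E4H at -59.3 to -39.96 and PS/E4H at 22.6 to 47.9. The next component held 16.2% and placed PS/E4H 1 and 4 (46.6 and 25.9) opposite PS/E4H 2 and 3 (-27.8 and -52.9). This is also the division of the PS/E4H mice by Xist. E4H 1 to 3 lay close together between them, at -1.77, 3.78 and 6.15, although E4H 3 differs from E4H 1 and 2 in Xist.

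Of 20844 genes that passed the filter and were tested, 500 were raised in PS/E4H (2.4%) and 121 were lowered (0.581%). A gene is called raised or lowered here when its p from edgeR's quasi-likelihood F test, adjusted by Benjamini-Hochberg over all genes tested, is under 0.05 and its fold change is at least 2. Without the fold limit, 1797 genes were higher (8.62%) and 1455 lower (6.98%) at that adjusted p, and the median log2 fold change of all genes tested was -0.0023. The CPM of the 4 PS/E4H mice lay above those of all 3 E4H mice in 3062 genes (14.7%) and below them in 2947 (14.1%), among them 483 of the 500 raised and 116 of the 121 lowered genes. The median fold was 2.95 among raised and 2.41 among lowered genes, and 153 raised against 16 lowered genes passed 4-fold. The number of lowered genes depended on single mice, and was 31 without E4H 2, 53 without E4H 1 and 59 without PS/E4H 2. In bulk tissue, a change in the number of cells of a type and a change in RNA per cell cannot be told apart, and this holds for every result that follows.

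**Figure D1:**
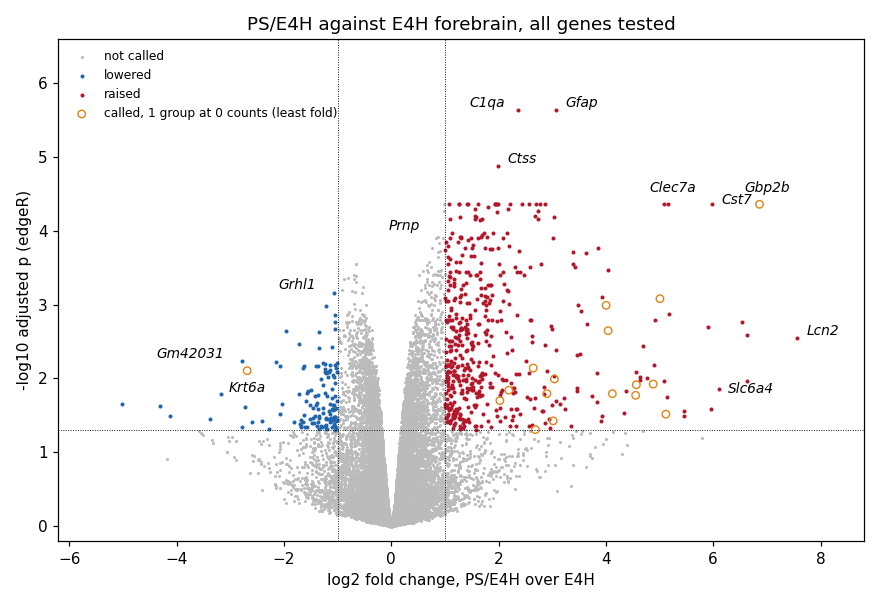
Log2 fold change and adjusted p of all 20844 genes tested. Each point is a gene, the 500 raised and 121 lowered genes are coloured, and rings mark called genes with 0 counts throughout 1 group, placed at their least fold against a floor of 3 counts.

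Raised genes lay on every chromosome except the mitochondrial, with a share between 1.14% of the genes tested on chromosome 12 and 3.63% on chromosome 19 among autosomes. On chromosome 7, which carries the APOE replacement, 48 of 1623 genes were raised, or 2.96%. Of the raised genes 9.2% lacked a protein-coding annotation, against 46.3% of the lowered and 22.9% of all genes tested.

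Genes tied to the transgene come before the others. Prnp, the mouse prion protein gene whose promoter drives the transgene, was at 820.1, 826 and 896 CPM in E4H 1 to 3 and 1649, 1494, 1839 and 1916 CPM in PS/E4H 1 to 4 (log2 fold change 1.02, SE 0.0898, adjusted p = 1.4e-04), where SE is the standard error. All PS/E4H mice were above all E4H mice. Reads from Prnp segments of the transgene and reads from the endogenous gene cannot be told apart in these counts. Mouse Mapt, the endogenous tau gene, was at 497, 502 and 506 and 473, 419, 461 and 444 CPM in the same order and did not pass the test (log2 fold change -0.16, SE 0.0593, adjusted p = 0.098). Mouse Apoe, replaced in both groups, was at 14.1, 11.7 and 13.8 CPM and 12.1, 16, 16.4 and 13.6 CPM (log2 fold change 0.14, SE 0.131, adjusted p = 0.53), and human APOE and MAPT were not analysed here.

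The smallest p of all belonged to C1qa, a chain of the protein that starts the classical complement cascade and that microglia make in the brain. It was at 36.8, 39.3 and 37.2 CPM in E4H 1 to 3 and 228, 183, 184 and 182 CPM in PS/E4H 1 to 4 (log2 fold change 2.36, SE 0.0934, adjusted p = 2.3e-06). The E4H mice were nearly equal, and PS/E4H 1 was the highest of the 4 PS/E4H mice. C1qb, its partner chain, was at 43.8, 45.5 and 42.7 and 211, 143, 156 and 178 CPM (log2 fold change 1.97, SE 0.123, adjusted p = 4.4e-05), again without overlap. C3ar1, the receptor for the complement fragment C3a, was at 2.62, 2.49 and 2.72 and 17.2, 11.9, 13.2 and 14.2 CPM (log2 fold change 2.44, SE 0.153, adjusted p = 4.4e-05). Its groups did not overlap either.

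Of 28 listed complement genes, 25 were tested, 11 were raised and 0 lowered, and their median log2 fold change was 0.98. The called genes comprised the C1q chains, the central components C3, C4a and C4b, the inhibitor Serping1 and the receptors C3ar1, Itgam, Itgb2 and Itgax. The most abundant member per length was Clu, a lipid-carrying chaperone that also blocks the terminal complex, at 228 FPKM in E4H and 449 FPKM in PS/E4H. Clu was at 873, 792 and 873 CPM and 1629, 1683, 1727 and 1649 CPM and missed the fold limit (log2 fold change 0.98, SE 0.0612, adjusted p = 4.4e-05), although no PS/E4H mouse reached down to an E4H mouse. The protease subunits C1ra (log2 fold change 0.27) and C1s1 (0.29) and the alternative pathway factor Cfb (-0.00025) did not pass, and Cfi, Cfd and Vsig4 were too scarce to test.

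A short binding site was looked for in the promoters. The motif AGGAAGT is bound by PU.1, the factor that sets macrophage identity, and by other ETS proteins. The promoters of C1qb, of Cst7 (a cysteine protease inhibitor) and of Ctss (a lysosomal protease) are shown because these genes are among the 12 raised genes with the smallest p and each holds the motif. They run from 250 bases before the start of the transcript to 50 after it, on GRCm38.p6, at chr4:136886151-136886450 (minus strand), chr2:150570165-150570464 (plus strand) and chr3:95526536-95526835 (plus strand), with the motif on either strand in capitals.
C1qb: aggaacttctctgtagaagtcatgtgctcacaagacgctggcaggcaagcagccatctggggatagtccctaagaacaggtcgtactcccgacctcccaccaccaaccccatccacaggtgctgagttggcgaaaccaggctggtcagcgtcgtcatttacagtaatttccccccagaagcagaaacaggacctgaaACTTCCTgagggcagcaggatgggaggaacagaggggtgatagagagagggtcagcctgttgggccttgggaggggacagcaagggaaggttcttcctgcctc
Cst7: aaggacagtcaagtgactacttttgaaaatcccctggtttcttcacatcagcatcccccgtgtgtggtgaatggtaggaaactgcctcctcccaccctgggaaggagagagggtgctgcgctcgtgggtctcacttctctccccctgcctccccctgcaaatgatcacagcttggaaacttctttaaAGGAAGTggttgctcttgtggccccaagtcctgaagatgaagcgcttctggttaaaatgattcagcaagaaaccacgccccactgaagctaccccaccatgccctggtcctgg
Ctss: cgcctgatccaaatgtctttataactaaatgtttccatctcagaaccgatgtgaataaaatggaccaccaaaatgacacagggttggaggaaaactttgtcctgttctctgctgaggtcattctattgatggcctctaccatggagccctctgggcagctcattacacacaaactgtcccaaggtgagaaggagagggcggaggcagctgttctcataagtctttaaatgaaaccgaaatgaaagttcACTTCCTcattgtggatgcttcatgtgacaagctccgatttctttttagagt

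The motif stood in 88 of the 365 raised genes that have a promoter in the reference set (24.1%) and in 6 of 61 lowered genes (9.84%). Over all genes tested with a promoter the share was 10.2%, and over all promoters of the set 9.35%. By list it was in 4 of 17 complement, 4 of 24 disease-associated microglia, 4 of 11 homeostatic microglia and 5 of 23 lysosome genes. It was in 2 of 30 interferon response, 1 of 13 cholesterol synthesis and 0 of 14 class I genes. Whether PU.1 binds these sites in these mice was not tested.

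Genes of the disease-associated microglia program rose in nearly full number. All 30 listed genes were tested, 22 were raised and 0 lowered, and 28 were higher at an adjusted p under 0.05, with a median log2 fold change of 1.76. Their most abundant member per length, the iron store Fth1, is made by many cells and was at 429 and 626 FPKM. Ank and Timp2 were the pair that did not pass (log2 fold changes 0.02 and 0.11).

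Trem2, the lipid-sensing receptor at the head of the program, was at 13.2, 12.1 and 11.3 CPM in E4H 1 to 3 and 55.2, 44.4, 39.4 and 49.6 CPM in PS/E4H 1 to 4 (log2 fold change 1.95, SE 0.121, adjusted p = 4.4e-05). The lowest PS/E4H mouse, number 3, was far above the highest E4H mouse. Tyrobp, the adaptor that carries its signal, was at 12, 10.7 and 11.8 and 51.8, 47, 38.5 and 37.8 CPM (log2 fold change 1.93, SE 0.125, adjusted p = 4.4e-05). Clec7a, a receptor for fungal glucans that marks the late stage of the program, was at 1.01, 0.758 and 0.377 and 34.1, 25.2, 22.1 and 20.2 CPM (log2 fold change 5.15, SE 0.318, adjusted p = 4.4e-05). PS/E4H 1 was the highest for each of these genes, and no groups overlapped.

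Cst7 was nearly silent in E4H, at 0.179, 0.293 and 0.202 CPM, and was at 23.8, 11.7, 10.2 and 12 CPM in PS/E4H (log2 fold change 5.98, SE 0.39, adjusted p = 4.4e-05). Itgax, an integrin chain of complement receptor 4, was at 1.1, 0.572 and 0.566 and 38.9, 19.5, 21.2 and 20.6 CPM (log2 fold change 5.07, SE 0.35, adjusted p = 4.4e-05). For both, PS/E4H 1 stood above the other PS/E4H mice, which were close to each other. Mpeg1, a pore-forming protein of phagocytes, was at 33.9, 34.7 and 38.8 and 219, 153, 149 and 141 CPM (log2 fold change 2.21, SE 0.149, adjusted p = 4.4e-05). Ucp2, a mitochondrial carrier that is outside the lists, was at 25.4, 21.7 and 20.01 and 62.4, 60.5, 57.3 and 56.9 CPM (log2 fold change 1.41, SE 0.0895, adjusted p = 4.4e-05), with the tightest PS/E4H values of these genes.

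**Figure D2:**
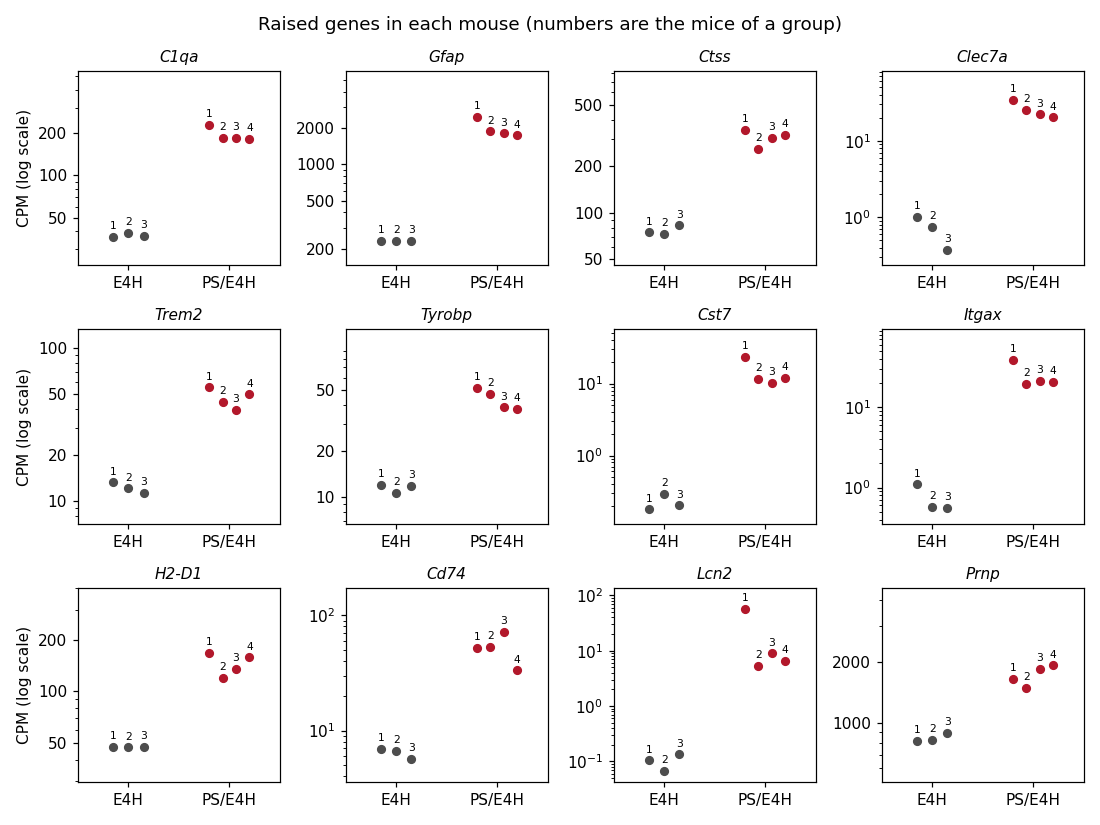
CPM of 12 raised genes on a log scale, 1 point per mouse, with the mice of each group numbered. The 4 PS/E4H mice lie above the 3 E4H mice for every gene shown.

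Of the remaining TREM genes, Treml2, a receptor of myeloid and lymphoid cells, was at 0.969, 0.346 and 0.539 CPM in E4H and 3.65, 1.49, 1.93 and 4.44 CPM in PS/E4H (log2 fold change 2.22, SE 0.465, adjusted p = 0.012), and PS/E4H 1 and 4 were above PS/E4H 2 and 3. The adaptor Hcst did not pass (log2 fold change 0.43, adjusted p = 0.61). Trem1, at 0, 0 and 0 counts in E4H and 13, 3, 0 and 0 counts in PS/E4H, and Treml1, at 0, 0 and 11 and 14, 0, 15 and 0 counts, were too scarce to test, as were Trem3 and Treml4. Thus 4 of the 8 listed genes were tested, 3 were raised, and the median log2 fold change was 1.94. The raised count ran from 2 to 3 with a mouse left out.

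None of the markers of homeostatic microglia was lowered. Of the 16 genes listed and tested, 6 were raised, 13 were higher at an adjusted p under 0.05, and the median log2 fold change was 0.85. P2ry12, the purinergic receptor of resting microglia, was at 36.5, 38.2 and 40.6 CPM in E4H and 37.2, 38.8, 36.8 and 47.5 CPM in PS/E4H (log2 fold change 0.06, SE 0.0965, adjusted p = 0.72), and the groups overlapped. Tmem119, another marker of resident microglia, was at 19.6, 22.8 and 21.9 and 36.7, 29, 34.3 and 37.4 CPM (log2 fold change 0.68, SE 0.104, adjusted p = 0.0028). It was higher in every PS/E4H mouse but under the fold limit, as were the fractalkine receptor Cx3cr1 (0.88) and the growth factor receptor Csf1r (0.89). The raised genes Fcrls, Olfml3 and Aif1 had log2 fold changes of 1.09 to 1.66, and the summed level of the list was 497, 495 and 514 CPM in E4H and 1110.03, 900.5, 893 and 1038 CPM in PS/E4H. Sall1 (0.17) and Slc2a5 (0.00027) did not pass. The disease-associated genes summed to 3870.4, 3635 and 3963 CPM and 8122, 7208, 6302 and 6728 CPM. Of these genes Fth1 alone, on the scale of single genes, was at 1635, 1493 and 1688 CPM and 2222, 2787, 2329 and 2089.7 CPM. The part of cell number in these levels was not tested.

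Fc receptors, which bind antibody, changed in 6 of 8 tested genes, all raised, with a median log2 fold change of 1.77. Fcgr3, an activating receptor, was at 12.9, 13.8 and 12.7 CPM and 45.2, 37.8, 56.5 and 43.6 CPM (log2 fold change 1.8, SE 0.129, adjusted p = 4.7e-05), and PS/E4H 3 was the highest. The common signalling chain Fcer1g, the inhibitory receptor Fcgr2b and the receptor-like Fcrls, which is the most abundant member per length, had log2 fold changes of 1.56 to 2.18. The neonatal receptor Fcgrt was higher under the fold limit (0.58), and Fcrl1 (0.53) did not pass.

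Toll-like receptors and inflammasome genes were raised in 13 of 27 tested genes, with none lowered and a median log2 fold change of 1.18. Tlr2, which recognizes lipoproteins, was at 1.54, 1.78 and 1.93 and 14.4, 9.18, 9.19 and 12.1 CPM (log2 fold change 2.68, SE 0.202, adjusted p = 6.4e-05). Its groups did not overlap, and PS/E4H 1 and 4 were above PS/E4H 2 and 3. The RNA sensor Tlr7, the lipopolysaccharide co-receptor Cd14 and the Toll-like receptor partner Ly86 had log2 fold changes of 1.88 to 2.08. Il1b was raised (log2 fold change 2.03, SE 0.573, adjusted p = 0.038), while the most abundant member per length, Il18 (0.24), and Tnf (1.85), Il6 (-0.17), Nlrp3 (0.80) and Casp1 (0.15) did not pass.

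Chemokines and their receptors were raised in 11 of 28 tested genes of 31 listed, with 0 lowered and a median log2 fold change of 1.64. Without E4H 2 the raised count was 6. Ccl6, a chemokine of microglia and macrophages, was at 1.79, 1.26 and 2.05 CPM in E4H and 12.7, 12.4, 11.2 and 10.4 CPM in PS/E4H (log2 fold change 2.78, SE 0.185, adjusted p = 4.4e-05). Its PS/E4H mice were close together and far from the E4H mice. Ccl4, a chemokine of activated microglia, was at 0.119, 0.0399 and 0 and 1.55, 2.15, 1.4 and 1.38 CPM (log2 fold change 4.92, SE 0.67, adjusted p = 0.0016). The scavenger chemokine Cxcl16 and the macrophage chemokine Ccl9 had log2 fold changes of 1.76 to 2.4. The most abundant member per length, the neuronal chemokine Cx3cl1, went the other way, at 543, 611 and 492 and 361, 393, 497 and 398 CPM (log2 fold change -0.41, SE 0.11, adjusted p = 0.032), with E4H 3 and PS/E4H 3 overlapping, and it was under the fold limit.

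Some of the listed genes of antigen presentation were raised, in class I and in class II. H2-D1, a heavy chain of class I, was at 47.7, 47.2 and 47.6 CPM in E4H 1 to 3 and 168, 121, 135 and 158 CPM in PS/E4H 1 to 4 (log2 fold change 1.61, SE 0.108, adjusted p = 4.4e-05). The E4H mice were nearly equal, and the PS/E4H mice were all higher. B2m, the shared light chain and the most abundant class I member per length, was at 99.4, 95.4 and 88 and 227, 192, 206 and 268 CPM (log2 fold change 1.24, SE 0.109, adjusted p = 1.4e-04), with PS/E4H 4 the highest. The heavy chain H2-K1 and the immunoproteasome subunit Psmb8 had log2 fold changes of 1.31 to 1.71. Of 17 class I and peptide loading genes, 8 were raised, 16 were higher at an adjusted p under 0.05, and the median log2 fold change was 0.97.

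Of 10 class II genes, 7 were raised and the median log2 fold change was 1.75. Cd74, the invariant chain and the most abundant per length, was at 6.96, 6.65 and 5.69 CPM and 52.3, 53, 72.1 and 33.3 CPM (log2 fold change 3.03, SE 0.231, adjusted p = 6.5e-05), highest in PS/E4H 3 and lowest in PS/E4H 4. H2-Ab1, a chain that presents the peptide, was at 1.62, 1.69 and 1.63 and 10.9, 11.5, 12.5 and 7.87 CPM (log2 fold change 2.7, SE 0.182, adjusted p = 4.4e-05). No PS/E4H mouse came near an E4H mouse for either gene. H2-Aa and H2-Eb1, the other presenting chains, had log2 fold changes of 2.18 to 2.79, while the transactivator Ciita (0.06) and the peptide editor H2-DMa (0.38) did not pass.

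Genes of the interferon response were raised in part, with PS/E4H mice at different heights. All 42 listed genes were tested, 23 were raised and 0 lowered, 32 were higher at an adjusted p under 0.05, and the median log2 fold change was 1.22. The raised count was 15 without E4H 1 and 11 without E4H 2. Ifitm3, a membrane protein that blocks viral entry and the most abundant per length, was at 9.99, 11 and 9.97 CPM in E4H and 28.8, 25.2, 18.3 and 28.1 CPM in PS/E4H (log2 fold change 1.28, SE 0.153, adjusted p = 7.9e-04), and PS/E4H 3 was the lowest of its group. Lgals3bp, a secreted glycoprotein, was at 23.6, 21.2 and 22.7 and 111, 58.7, 62.8 and 95.8 CPM (log2 fold change 1.87, SE 0.21, adjusted p = 5.5e-04), again with PS/E4H 2 and 3 below PS/E4H 1 and 4. The same order held for the summed level of the list, which was 296, 291 and 278 CPM in E4H and 661, 501, 385 and 719 CPM in PS/E4H. The transcription factor Irf8 and the DNA sensor family member Ifi207 had log2 fold changes of 1.42 to 2.97, and Stat2 (-0.10) did not pass.

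The motif GAAANNGAA describes a site of interferon regulatory factors. The promoters of the raised genes Gbp2 (a guanylate-binding protein), Ifit3 (an antiviral RNA-binding protein) and Ifitm3 are shown to place these sites near the start. They are drawn as before from GRCm38.p6, at chr3:142620413-142620712 (plus strand), chr19:34583279-34583578 (plus strand) and chr7:141010695-141010994 (minus strand), with the motif in capitals.
Gbp2: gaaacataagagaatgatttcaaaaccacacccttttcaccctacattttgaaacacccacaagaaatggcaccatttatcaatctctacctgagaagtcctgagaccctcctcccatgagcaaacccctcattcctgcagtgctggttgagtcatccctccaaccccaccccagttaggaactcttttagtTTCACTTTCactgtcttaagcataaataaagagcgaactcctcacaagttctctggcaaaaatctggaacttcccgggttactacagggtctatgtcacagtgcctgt
Ifit3: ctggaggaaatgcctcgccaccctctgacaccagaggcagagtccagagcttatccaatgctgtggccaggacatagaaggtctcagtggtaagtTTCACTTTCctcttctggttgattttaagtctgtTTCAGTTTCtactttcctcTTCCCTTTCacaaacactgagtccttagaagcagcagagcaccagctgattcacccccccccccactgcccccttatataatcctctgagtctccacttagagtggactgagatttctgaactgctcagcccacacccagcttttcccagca
Ifitm3: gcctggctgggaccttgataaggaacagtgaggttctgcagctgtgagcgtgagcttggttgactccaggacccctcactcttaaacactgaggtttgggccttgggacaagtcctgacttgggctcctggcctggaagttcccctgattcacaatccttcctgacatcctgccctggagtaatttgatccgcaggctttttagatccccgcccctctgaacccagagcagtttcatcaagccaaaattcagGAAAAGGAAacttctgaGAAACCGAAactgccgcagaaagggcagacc

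Of 30 interferon genes with a promoter in the set, 21 held the motif, against 63 of 365 raised genes (17.3%), 5 of 61 lowered genes (8.2%) and 8.56% of all promoters. None of the 13 cholesterol synthesis promoters held it.

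Gbp2b, a guanylate-binding protein, had 0 counts in all 3 E4H mice and 342, 234, 224 and 409 counts in PS/E4H 1 to 4, or 5.52, 3.84, 3.64 and 6.35 CPM. Set against a floor of 3 counts per library, this is at least 116-fold (adjusted p = 4.4e-05). It was also higher in PS19 mice on APOE3 (adjusted p = 0.0021) and APOE2 (adjusted p = 0.0022). Gbp2b was among 16 raised genes with 0 counts in every E4H mouse. Strain alleles of the PS19 line were not analysed here, and their part in such all-or-none genes was not tested.

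Of 29 listed and tested genes of the lysosome, 10 were raised, 28 were higher at an adjusted p under 0.05, and the median log2 fold change was 0.82. Ctss was at 74.7, 73.2 and 82.9 CPM in E4H 1 to 3 and 344, 259, 304 and 319.6 CPM in PS/E4H 1 to 4 (log2 fold change 1.99, SE 0.10, adjusted p = 1.3e-05). Ctsd, the protease most abundant per length, was at 434, 407 and 438 and 1806, 1237, 1153 and 1317 CPM (log2 fold change 1.69, SE 0.14, adjusted p = 1.1e-04), and the groups of both genes were far apart. The membrane protein Laptm5 and the protease Ctsc had log2 fold changes of 1.26 to 1.55. Neu1, a sialidase, was the only member that did not pass (-0.04).

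Among 22 lipid handling genes, 5 were raised and 0 lowered, with a median log2 fold change of 0.22, and Clu was the most abundant per length. Abca1, the pump that loads lipid on APOE, was at 36.2, 32.3 and 36.3 CPM in E4H and 155, 72.3, 75.5 and 91.2 CPM in PS/E4H (log2 fold change 1.5, SE 0.237, adjusted p = 0.0033), with PS/E4H 1 at the top. Apod, a small lipid carrier, was at 244, 181 and 243 and 692, 707, 618 and 511 CPM (log2 fold change 1.5, SE 0.136, adjusted p = 1.7e-04). Plin4, a coat protein of lipid droplets, was at 6.11, 2.06 and 2.87 and 49.9, 28.5, 66.6 and 24.3 CPM (log2 fold change 3.53, SE 0.454, adjusted p = 0.0012). Plin4 varied widely among the PS/E4H mice, with PS/E4H 1 and 3 above PS/E4H 2 and 4. Ch25h, the enzyme for 25-hydroxycholesterol, was raised as well (log2 fold change 2.26, SE 0.51, adjusted p = 0.016).

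No gene of cholesterol synthesis was called, yet 17 of 20 were lower at an adjusted p under 0.05 and 0 higher, with a median log2 fold change of -0.51 and a change under 2-fold in each. Hmgcs1, an early enzyme and the most abundant per length, was at 254, 291 and 252 CPM in E4H and 164, 167, 138 and 169.9 CPM in PS/E4H (log2 fold change -0.73, SE 0.0845, adjusted p = 6.5e-04). Every PS/E4H mouse was below every E4H mouse. The list summed to 1474, 1617 and 1466 CPM and 1016, 1118, 917 and 1096 CPM.

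**Figure D3:**
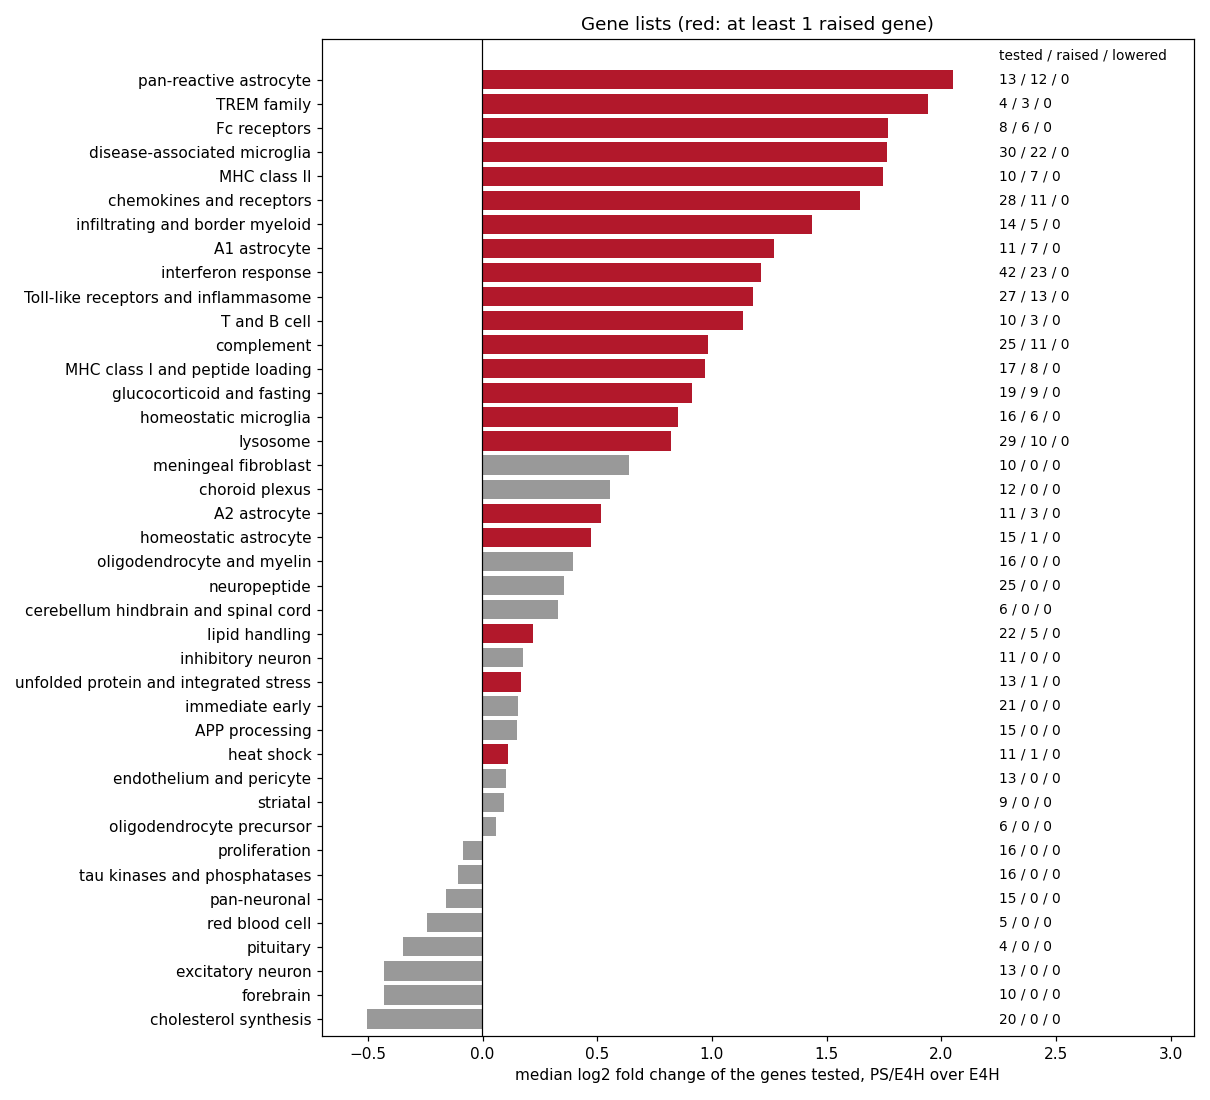
Bars give the median log2 fold change, PS/E4H over E4H, of the genes tested in each of 40 lists, with the numbers tested, raised and lowered at the right. The vertical line marks the median of all genes tested, -0.0023.

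Gfap, the intermediate filament of reactive astrocytes, was at 234, 234 and 234 CPM in E4H 1 to 3 and 2478, 1880.3, 1805 and 1744 CPM in PS/E4H 1 to 4 (log2 fold change 3.08, SE 0.125, adjusted p = 2.3e-06). This is a fold change of 8.45, with E4H mice nearly equal and PS/E4H 1 highest. Per length it was the most abundant of the pan-reactive astrocyte genes, at 51.4 FPKM in E4H and 433 FPKM in PS/E4H. Vim, a second filament, was at 41.4, 40.2 and 39.5 and 273, 148, 102 and 146 CPM (log2 fold change 2.05, SE 0.277, adjusted p = 0.0016). The enzyme Aspg and the oncostatin receptor Osmr had log2 fold changes of 1.75 to 2.19, and 12 of 13 pan-reactive genes were raised (7 without E4H 2), with a median log2 fold change of 2.05.

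Lcn2, an iron-binding acute phase protein, had the largest fold of these genes and leaned on 1 mouse. It was at 0.104, 0.0665 and 0.135 CPM in E4H and 57.5, 5.34, 9.05 and 6.63 CPM in PS/E4H (log2 fold change 7.57, SE 1.16, adjusted p = 0.0028). PS/E4H 1 was several times the next mouse, and the others were still far above E4H.

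Among 11 genes once assigned to A1 astrocytes 7 were raised, with a median log2 fold change of 1.27, and H2-D1 was the most abundant per length. Serping1, Ggta1 (an enzyme of sugar chains) and Psmb8 had log2 fold changes of 1.27 to 1.71. Of the A2 list, 11 of 12 genes were tested and 3 were raised, namely Tgm1, Cd109 and Cd14, with a median of 0.52, and S100a10 was the most abundant per length (log2 fold change 0.30, SE 0.088, adjusted p = 0.047). Tgm1, a protein crosslinker, was at 0.134, 0.20 and 0.216 and 10.5, 2.09, 1.25 and 5.34 CPM (log2 fold change 4.69, SE 0.759, adjusted p = 0.0036), high in PS/E4H 1 and 4 and lower in PS/E4H 2 and 3. The microglial and interferon genes in these lists are not particular to astrocytes.

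Of 15 homeostatic astrocyte genes 1 was raised, Aqp4, the water channel of the endfeet, at 111, 113 and 131 CPM in E4H and 333, 239.9, 172 and 222 CPM in PS/E4H (log2 fold change 1.03, SE 0.182, adjusted p = 0.0057). That call was lost without E4H 1 and without PS/E4H 1. At an adjusted p under 0.05 12 were higher and 0 lower, and the median log2 fold change was 0.47. Glul, the glutamine synthetase and the most abundant per length, was at 1491, 1423 and 1518 and 2023, 2029, 2455 and 1864 CPM (log2 fold change 0.50, SE 0.0897, adjusted p = 0.0059). The summed list was at 6491, 6200.2 and 6689 CPM and 9004, 8771, 9757 and 8264 CPM, with all PS/E4H mice above all E4H mice.

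No list of neuronal genes held a called member. Of 15 pan-neuronal genes 4 were lower at an adjusted p under 0.05, and the median log2 fold change was -0.16. Snap25, a synaptic fusion protein and the most abundant per length, was at 2263, 2487 and 2335 CPM and 1949, 1923, 2085 and 2244 CPM (log2 fold change -0.20, SE 0.0703, adjusted p = 0.077). Of 13 excitatory neuron genes none was called, 7 were lower and 0 higher, and the median was -0.43. Camk2a, a synaptic kinase that was the most abundant per length, was at 2105, 2282 and 2142 and 1526, 1490.1, 2122 and 1529.6 CPM (log2 fold change -0.38, SE 0.117, adjusted p = 0.051), where PS/E4H 3 lay within the E4H range.

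Slc17a7 was at 936, 1121 and 979 and 756, 649, 772 and 822 CPM (log2 fold change -0.43, SE 0.0903, adjusted p = 0.011), lower in every PS/E4H mouse. The cortical transcription factor Neurod6 (-0.72) had the largest fall of the forebrain list, in which 5 of 10 genes were lower at an adjusted p under 0.05, none was called and the median was -0.43. Excitatory genes summed to 4076, 4504 and 4093 CPM in E4H and 3107, 2899, 3715 and 3219.5 CPM in PS/E4H.

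No inhibitory neuron gene of 11 was called, 4 were higher and 1 lower at an adjusted p under 0.05, the median was 0.18, and Sst, a peptide of interneurons, was the most abundant per length (log2 fold change -0.11, SE 0.0913, adjusted p = 0.46). None of 9 striatal genes passed, with a median of 0.09, and Penk, an opioid peptide precursor that was the most abundant per length, ran from 127 to 287 CPM within PS/E4H. The 21 immediate early genes of neuronal activity had 1 higher and 1 lower member at an adjusted p under 0.05, a median of 0.15, and Egr1 as the most abundant per length (log2 fold change -0.25, SE 0.215, adjusted p = 0.48). Of 26 neuropeptide genes 25 were tested and none was called, with a median of 0.36, and Sst was again the most abundant per length.

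Some myelin genes were higher, by less than 2-fold. None of 16 oligodendrocyte and myelin genes was called, 9 were higher and 0 lower at an adjusted p under 0.05, and the median was 0.39. Mbp, the myelin basic protein and the most abundant per length, was at 2761, 2492 and 3058 CPM and 4312, 4684, 3711 and 3489 CPM (log2 fold change 0.55, SE 0.11, adjusted p = 0.0096), with no overlap. Among 6 precursor genes none was called, the median was 0.06, and the most abundant per length, the matrix protein Tnr, was lower (log2 fold change -0.40, SE 0.111, adjusted p = 0.037).

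Genes that act on tau or on APP were not called. Of 16 kinases and phosphatases of tau, 3 were lower at an adjusted p under 0.05 and 0 higher, with a median of -0.11, and Camk2a was the most abundant per length. Of 15 APP processing genes 3 were higher, the median was 0.15, and Aplp1, a relative of APP, was the most abundant per length (log2 fold change 0.05, SE 0.0624, adjusted p = 0.65).

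Stress genes were read as 3 lists. Targets of glucocorticoid hormone and fasting were raised in 9 of 19 genes, 15 were higher at an adjusted p under 0.05, and the median was 0.91. Sgk1, a kinase induced by the hormone, was at 87.5, 68.2 and 61.1 CPM in E4H and 241, 198, 177 and 218 CPM in PS/E4H (log2 fold change 1.53, SE 0.136, adjusted p = 1.6e-04), and PS/E4H 1 was highest. Mt2, a metal-binding protein and the most abundant per length, was at 55.9, 54.1 and 47 and 167, 151, 129 and 104 CPM (log2 fold change 1.4, SE 0.145, adjusted p = 3.6e-04), and the linked Mt1 had a log2 fold change of 1.09. Plin4 and Lcn2, above, belong to this list too, and Lcn2 is also one of the pan-reactive astrocyte genes. Fkbp5 (0.82) and Tsc22d3 (0.60) were higher under the fold limit. Per1 (0.16), Zbtb16 (0.39), Angptl4 (0.71) and Map3k6 (0.36) did not pass. The part of the hormone and of fasting in these levels was not tested.

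Of 13 unfolded protein and integrated stress genes only Atf3, a factor induced by injury, was raised (log2 fold change 2.34, SE 0.307, adjusted p = 0.0014), with a median of 0.17 and Hspa5 as the most abundant per length (0.20). Of 11 heat shock genes only the small chaperone Hspb1 was raised (log2 fold change 1.06, SE 0.194, adjusted p = 0.0065), a call lost without PS/E4H 2, with a median of 0.11 and Hspa8 as the most abundant per length (0.05). None of 16 proliferation genes was called, the median was -0.08, and the replication clamp Pcna was the most abundant per length (log2 fold change 0.30, SE 0.0795, adjusted p = 0.029).

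Genes of other cell types were read as a check on what the samples held. Of 20 T and B cell genes 10 were tested and 3 were raised (2 to 3 with a mouse left out), with a median of 1.14. The list summed to 19.1, 18.7 and 17.1 CPM in E4H and 53.2, 32.4, 54.5 and 60.5 CPM in PS/E4H. Most of this rise was Lag3. Its mean was 5.88 CPM in E4H and 35.4 CPM in PS/E4H, beside means of 18.3 and 50.2 CPM for the summed list. Lag3, an inhibitory receptor that microglia also make, was the most abundant per length and was at 5.83, 5.84 and 5.97 and 36.6, 18.9, 41.1 and 45.2 CPM (log2 fold change 2.59, SE 0.26, adjusted p = 3.1e-04). Pdcd1, an inhibitory receptor of T cells and some myeloid cells, was at 0.119, 0.146 and 0.162 and 3.57, 1.28, 2.26 and 2.39 CPM (log2 fold change 4.04, SE 0.41, adjusted p = 3.4e-04). The defining chain Cd3g was at 4, 0 and 0 counts in E4H and 35, 11, 15 and 16 counts in PS/E4H (adjusted p = 0.038), while Cd3e, at 2, 4 and 13 and 7, 15, 0 and 4 counts, Cd8a and Ms4a1 were too scarce to test. The granzyme Gzmk, at 37, 34 and 16 and 0, 4, 8 and 6 counts, was below E4H in every PS/E4H mouse but did not pass (log2 fold change -2.46, adjusted p = 0.069), and neither did Cd4 (-0.23). The part of lymphocytes in the results was not tested.

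Of 14 genes of infiltrating and border myeloid cells 5 were raised, the median was 1.43, and the list summed to 11.5, 12.3 and 9.21 CPM and 51.5, 29.3, 24 and 24.7 CPM. Of the border macrophage genes, Mrc1, Cd163, F13a1 and Ms4a7 were raised, with log2 fold changes of 1.25 to 1.998, while Lyve1 (1.23), Pf4 (0.82) and Cd209f (0.25) did not pass. S100a9, a neutrophil protein and the most abundant per length, was at 0.0894, 0.12 and 0.337 and 6.79, 0.69, 0.877 and 0.31 CPM (log2 fold change 3.55, SE 1.08, adjusted p = 0.051), so that PS/E4H 1 stood far above the rest. Its partner S100a8 was raised, at 0, 0.0931 and 0 and 4.41, 1.05, 0.162 and 0.357 CPM (log2 fold change 5.46, SE 1.41, adjusted p = 0.028), a call lost without any single E4H mouse or without PS/E4H 1. The monocyte receptor Ccr2 (1.46) did not pass.

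No choroid plexus gene of 12 passed, the median was 0.56, and Ttr, the most abundant per length, ran from 384 CPM in PS/E4H 1 to 1118 CPM in PS/E4H 2. The list summed to 810.00, 481 and 497 CPM and 466, 1269, 684 and 898 CPM, which overlap. Of 13 endothelium and pericyte genes 2 were higher at an adjusted p under 0.05, the median was 0.10, and Vtn was the most abundant per length (log2 fold change 0.43, SE 0.0687, adjusted p = 0.0035). Of 10 meningeal fibroblast genes 6 were higher, none was called, the median was 0.64, and Igf2 was the most abundant per length (log2 fold change 0.74, SE 0.129, adjusted p = 0.0054). They summed to 191, 152 and 144 CPM and 258, 276, 212 and 256 CPM, without overlap, and the part of meninges in the lists above was not tested. Of 9 pituitary genes 4 were tested and none passed, with a median of -0.35 and Pomc as the most abundant per length, and of 5 red blood cell genes none passed, with a median of -0.24 and Hbb-bs as the most abundant per length.

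Slc6a4, the serotonin transporter of raphe neurons, was among the largest folds. It was at 10, 0 and 0 counts in E4H 1 to 3 and 399, 354, 52 and 25 counts in PS/E4H 1 to 4 (log2 fold change 6.11, SE 1.33, adjusted p = 0.014). PS/E4H 1 and 2 were high, PS/E4H 3 and 4 low. A further 3 genes of that group were myeloid, and the PS/E4H mice differed widely among themselves in each. Atp6v0d2, a proton pump subunit, was at 0, 0 and 4 and 266, 114, 41 and 80 counts (adjusted p = 0.0026), and Mmp12, a macrophage elastase, at 0, 0 and 4 and 110, 173, 143 and 38 counts (adjusted p = 0.0017). Hcar2, the receptor for niacin and ketone bodies, was at 3, 0 and 8 and 177, 78, 111 and 106 counts (adjusted p = 0.0013).

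Lowered genes belonged to no list, and none of the 40 lists held a lowered gene. Grhl1, an epithelial transcription factor, had the smallest p among them and was at 14.7, 17.6 and 18.7 CPM in E4H 1 to 3 and 8.99, 7.16, 7.57 and 8.68 CPM in PS/E4H 1 to 4 (log2 fold change -1.07, SE 0.125, adjusted p = 7.1e-04). Itga8, an integrin chain, was at 8.47, 9.1 and 8.98 and 3.99, 3.37, 4.61 and 3.2 CPM (log2 fold change -1.22, SE 0.153, adjusted p = 0.0010). Rspo2, an enhancer of Wnt signals, was at 16.7, 18.9 and 17.1 and 6.58, 8.52, 8.96 and 9.9 CPM (log2 fold change -1.05, SE 0.137, adjusted p = 0.0014). These 3 genes had tight groups that did not overlap.

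Col6a1, a chain of collagen VI, was at 42.2, 60.1 and 45.8 CPM in E4H and 23.8, 25.2, 18.8 and 27.6 CPM in PS/E4H (log2 fold change -1.05, SE 0.145, adjusted p = 0.0017). Col6a4, another collagen VI chain, fell further, from 4.05, 5.48 and 1.47 to 0.904, 0.969, 0.796 and 0.621 CPM (log2 fold change -2.16, SE 0.387, adjusted p = 0.0061). E4H 3 was the lowest E4H mouse for Col6a4 and still above all PS/E4H mice. Robo3, a guidance receptor of crossing axons, was at 12.4, 18.5 and 7.76 and 3.81, 2.89, 5.12 and 3.83 CPM (log2 fold change -1.72, SE 0.274, adjusted p = 0.0035), with the same order of E4H mice. Rgs11, a brake on G protein signals, and Ryr1, the calcium release channel of muscle, had log2 fold changes of -1.34 to -1.04.

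Among the 12 lowered genes with the smallest p, 4 had no known protein role. The RNAs C78859, Gm27000 and Gm42031 and the transcript AA414992 had log2 fold changes of -2.78 to -1.11. Near copies make the counts of some uncertain, since 93.7% of the 50-base windows of Gm27000 and 55.3% of those of Gm42031 also occur in another gene. AA414992 was at 2.1, 2.46 and 1.54 CPM in E4H and 0.646, 0.591, 0.455 and 0.404 CPM in PS/E4H (log2 fold change -1.95, SE 0.286, adjusted p = 0.0023), and its groups were well apart. Of the largest falls among genes of at least 1 CPM, Tnfrsf25 (a death receptor of lymphocytes), Olfr316 (an olfactory receptor), Krt2 (a keratin), Mcmdc2 (a meiotic repair protein) and Muc3a (a mucin) had log2 fold changes of -1.72 to -1.63 and adjusted p of at most 0.044. The only lowered gene with 0 counts in all 4 PS/E4H mice, singled out after its values were seen, was the keratin Krt6a, at 21, 19 and 27 counts in E4H, which is at least 6.43-fold (adjusted p = 0.0079). Of its 50-base windows 45.7% also occur in another gene.

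Further lowered genes of epithelia and liver were picked after their values were seen. The keratin Krt5 was at 66, 54 and 86 counts in E4H and 0, 4, 11 and 11 counts in PS/E4H (adjusted p = 0.016), and Dsc3, a desmosomal protein, at 87, 148 and 143 and 34, 53, 48 and 49 counts (adjusted p = 0.016). Alb, the albumin gene of the liver, was at 264, 15 and 143 and 0, 15, 0 and 0 counts (adjusted p = 0.022), with E4H 2 equal to PS/E4H 2. The epidermal genes Krt1 (log2 fold change -0.04), Krt10 (-0.16) and Sfn (0.03) did not pass. Neither Krt5, Dsc3 and Alb nor Hoxc10 above kept a call with every mouse left out in turn. The part of other tissue in the lowered genes was not tested.

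**Figure D4:**
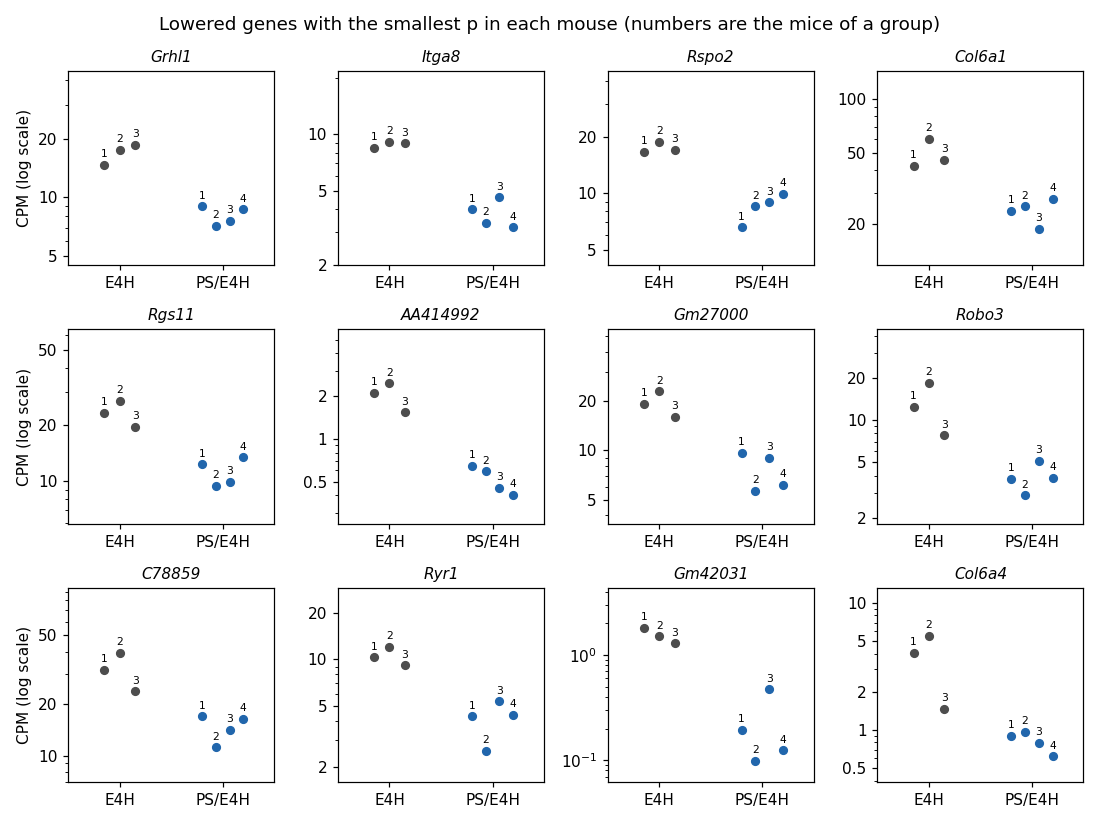
CPM of the 12 lowered genes with the smallest p on a log scale, 1 point per mouse, with the mice of each group numbered. The 4 PS/E4H mice lie below the 3 E4H mice for every gene shown.

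On the other backgrounds, each with its own parental controls, fewer genes were called. PS/E3H against E3H gave 254 raised (1.2%) and 27 lowered genes (0.127%) of 21251, and PS/E2H against E2H gave 93 (0.451%) and 7 (0.034%) of 20617. The difference between these counts was not tested. Sex patterns differed between the backgrounds, since all 3 E3H, 4 PS/E3H and 3 E2H mice and 3 PS/E2H mice had the female pattern. The male pattern was seen in 1 E4H, 2 PS/E4H and 1 PS/E2H mice. The part of sex and of age at death in these counts was not tested. Gfap had a log2 fold change of 3.08 on APOE4, 2.66 on APOE3 (adjusted p = 2.0e-04) and 2.3 on APOE2 (adjusted p = 9.8e-04). Trem2 had 1.95, 1.49 (adjusted p = 0.0013) and 1.14 (adjusted p = 0.048), and Clec7a 5.15, 4.28 (adjusted p = 9.1e-05) and 4.13 (adjusted p = 0.0077). Prnp had 1.02, 0.75 (adjusted p = 0.0025) and 0.91 (adjusted p = 0.0026). Hmgcs1 had -0.73, -0.53 (adjusted p = 0.044) and -0.66, the last of which did not pass (adjusted p = 0.070). The order of these values is a description, since the differences were judged only by the interaction test.

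**Figure D5:**
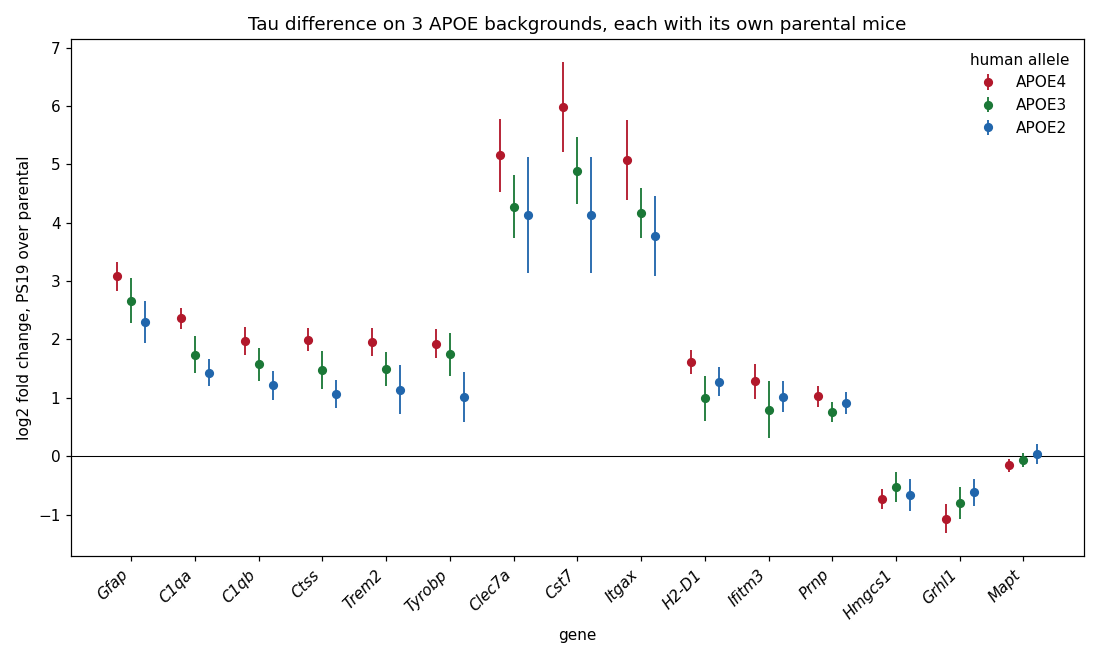
Log2 fold change of PS19 against parental mice for 15 genes on the APOE4, APOE3 and APOE2 backgrounds, with 95% intervals. Each background has 4 PS19 mice and its own 3 parental mice, and the bars are not a test of the difference between backgrounds.

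The interaction test asked whether the tau difference itself differed between backgrounds. By edgeR no gene passed an adjusted p under 0.05 against APOE3, 0 of 22212 (0%), with 847 at an unadjusted p under 0.05 and 8 called by DESeq2. Against APOE2 it was 0 of 22031 (0%), with 2223 at an unadjusted p under 0.05 and 115 called by DESeq2. Chance alone gives an unadjusted p under 0.05 in about 1 in 20 genes. The 847 of 22212 genes against APOE3 lie below that share, and the 2223 of 22031 against APOE2 above it. Genes share their mice, so these counts are not independent marks. A gene that misses this test is not thereby shown to change alike on the backgrounds.

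Against APOE2 the smallest interaction p belonged to C1qa. Its level was 37.6 ± 1.28 CPM (SD) in E4H, 193 ± 22.5 CPM in PS/E4H, 54.6 ± 9.72 CPM in E2H and 148 ± 6.88 CPM in PS/E2H. The difference between the log2 fold changes was 0.93 (standard error 0.149, adjusted p = 0.18). The parental level was higher and the PS19 level lower on APOE2 than on APOE4. Ctss had the same form, with 76.5 ± 5.19 and 305 ± 35.5 CPM on APOE4, 101.4 ± 19.9 and 213 ± 12.1 CPM on APOE2 and a difference of 0.92 (adjusted p = 0.18). Cartpt, an appetite peptide, went up on APOE4, from 7.1 ± 1.08 to 12.7 ± 2.02 CPM, beside 13.7 ± 1.69 and 9.71 ± 1.42 CPM on APOE2 (difference 1.34, adjusted p = 0.18). A gene known only as ENSMUSG00000118608 had a difference of 3.13 (adjusted p = 0.18).

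Ms4a4a, a membrane protein of macrophages in the gene cluster that modulates soluble TREM2, was among the 5 smallest interaction p against both backgrounds. It had 0 counts in all E4H mice and 50, 35, 42 and 39 counts in PS/E4H 1 to 4, at least 16-fold. On APOE3 it was at 0.152 ± 0.00892 CPM in parental and 0.771 ± 0.426 CPM in PS19 mice, and on APOE2 at 0.207 ± 0.0334 and 0.592 ± 0.358 CPM. The interaction had an adjusted p = 0.53 against APOE3 and 0.18 against APOE2. The PS19 levels were thus near each other on all backgrounds, and the parental level was 0 on APOE4 only.

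The other small interaction p against APOE3 came from genes with provisional names. Gm21887, annotated on the X, and Gm47283, annotated on the Y chromosome, were at 1.89, 2.04, 0.244 and 2.83 CPM and 3.26, 2.28, 0.26 and 4.04 CPM in PS/E4H 1 to 4, with PS/E4H 3 at the E4H level for each, and E3H mice were far higher, at 18.3 ± 5.91 and 21.6 ± 5.95 CPM. All E3H and PS/E3H mice and PS/E4H 2 had the female pattern, with at most 15 Ddx3y counts. Gm47283 thus did not follow Ddx3y, and where its reads come from is uncertain. PS/E3H mice were at 6.2 ± 1.09 and 8.74 ± 2.39 CPM, so on APOE3 both were lower in PS19 mice, with log2 fold changes of -1.57 and -1.31 (interaction adjusted p = 0.43 and 0.53). Gm6166 was at 0.268, 0.266 and 0.377 CPM in E4H and 0.565, 13.3, 10.4 and 12.3 CPM in PS/E4H (interaction adjusted p = 0.9999), and PS/E4H 1 was close to E4H. Of the 50-base windows of Gm21887 59.7%, of Gm47283 40.5% and of Gm6166 53.6% also occur in another gene. Gm20186 had 1 count in E4H in all and 67, 33, 2 and 59 counts in PS/E4H, a ratio of 140.1 with a 95% counting interval of 24.8 to 5566 for counts alone (interaction adjusted p = 0.9999).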

How the data were processed

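Forebrain RNA of single mice was read by poly(A) sequencing, and 7 of 21 mice were compared here (4 PS/E4H, 3 E4H). The authors trimmed reads with Cutadapt, mapped them with HISAT2, assembled transcripts with StringTie and deposited a matrix of counts per gene and a table of FPKM per gene (fragments scaled by transcript length and library size). Tool versions are not stated, and neither is how counts were derived from StringTie. Columns were matched to mice by their names, with 0 left unmapped. The labels give GRCm38.p5 and the methods Ensembl release 101, gene names and biotypes came from GENCODE M21, and promoters from RefSeq on GRCm38.p6.

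Counts were analysed with edgeR 4.0.16 in R 4.3.3 (filterByExpr with a minimum count of 10 and a minimum total of 15, TMM, quasi-likelihood F test, Benjamini-Hochberg over all genes tested), and called at an adjusted p under 0.05 and a fold of at least 2. Standard errors are the log2 fold change over the square root of F. Interactions used the 14 mice of a pair of backgrounds, with no fold limit. Where a group had 0 counts throughout, the fold is given as at least the ratio to a floor of 3 counts per library. Levels of different genes use the deposited FPKM. Tables and figures were made with Python 3.11.15, pandas 2.3.3, NumPy 2.4.6, SciPy 1.17.1 and matplotlib 3.10.9, and the pipeline was tested on simulated data. The libraries held 60883889 to 74756427 counts.

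The members and the 40 lists, with 612 genes, were chosen with earlier results of these data known, and no list was given a p. Named genes were the 12 raised and 12 lowered genes with the smallest p, the 8 raised and 8 lowered with the largest fold at a mean of at least 1 CPM, up to 4 called genes of each list and direction, the most abundant of each list by FPKM, fixed names (Mapt, Prnp, Apoe, Xist, Ddx3y, Gfap, C1qa, C1qb, Mpeg1, Trem2, Clec7a, Treml2, Trem1, Treml1) and the 5 smallest interaction p on each background. Further list members were named after their values were seen, and some genes that met the rules were not used here. Alternatives were DESeq2 1.42.0, RLE scaling, no filter, at least 50 counts in 3 mice, limma 3.58.1 on log2 FPKM with a pseudocount of 1 or 0.1 (FPKM of at least 0.1 in 3 mice, or no filter), all 21 mice in 1 fit, each mouse left out, a replicate block, a term for sex, no fold limit and, chosen after seeing the data, only the mice with Xist. Human transcripts were not used here, and reads shared by near-identical genes remain uncertain. Among other named genes, the share of 50-base windows found in another gene was 61.2% for Igf2, 53.2% for Hbb-bs and 51.2% for Ifit3. It was 48.8% for Hspb1, 38.6% for Hspa8 and 32.4% for Ctsd.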

Additional observations from a re-analysis of the deposited data

Results flagged for a closer look

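Among 228 sets of 4 PS/E4H values looked at, for 183 genes, 40 summed lists and 5 library measures, 20 held a mouse far from the other 3 by Dixon's ratio at a limit where chance alone marks about 1 in 20. The genes of a list share their mice, so these marks are not independent. No gene was marked for a difference between backgrounds.

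PS/E4H 1 was the far mouse, on the high side, for C1qa (ratio 0.946), Cst7 (0.866), Mpeg1 (0.847), Itgax (0.913), Itgb2 (0.871), Cxcl16 (0.850), Aspg (0.835), Lcn2 (0.929), C3 (0.90), S100a9 (0.913) and C1s1 (0.879). It was also the far mouse for the summed A2 astrocyte list (0.861). Without it 440 genes were raised and 156 lowered, against 500 and 121 with it, and why it stood apart was not tested.

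PS/E4H 2 was the far mouse, on the high side, for Gapdh (0.961) and Alb (1, the other 3 mice at 0), PS/E4H 3 for Camk2a (0.938) and for the summed chemokine list (0.834), and PS/E4H 4 for Vtn (0.909) and Hoxc10 (1, the other 3 mice at 0). For C4a (0.869) and Pf4 (0.925) PS/E4H 4 was the far mouse on the low side.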

How the results depend on the processing

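None of the 118 called genes named in the text changed sign under any setting, and 86 kept their call with every mouse left out in turn. The raised count was 353 to 571 and the lowered count 31 to 156 with a mouse left out, and the lowered count fell to 53 without E4H 1, 31 without E4H 2 and 59 without PS/E4H 2. The raised share of called genes was 91.9% without E4H 2, against 80.5% with all mice. Why these mice move the counts was not tested.

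With DESeq2 553 genes were raised and 160 lowered, with RLE scaling 499 and 121, with at least 50 counts in 3 mice 463 and 112, and with all 21 mice in 1 fit 501 and 129. With no filter on low counts 408 were raised and 69 lowered, over more genes tested. On log2(FPKM + 1), limma called 123 and 4, and with no filter 118 and 3, while log2(FPKM + 0.1) gave 382 and 139. The pseudocount of 1 shrinks folds of scarce genes, and it moved the raised share of called genes to 96.9% and 97.5%. With no fold limit 1797 were higher and 1455 lower, a higher share of 55.3%. A term for sex gave 452 and 88. Only the 4 mice with Xist, a setting chosen after seeing the data, gave 341 and 146, a raised share of 70.0%.

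With the replicate number as a block (replicate block), 374 genes were raised and 49 lowered, and 0 interactions were called on either background. The deviations of same-numbered mice correlated at -0.033, -0.074 and -0.058, no E4H mouse matched its own number best, and no pairing by number was seen.

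Interactions called by edgeR were 0, and 8 with DESeq2 against APOE3 and 115 against APOE2. With a mouse left out they were 0 to 3 against each, and 0 under the other settings. The cause was not tested.

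Signs turned only for values that did not pass or were medians. Slc2a5 was at -0.0084 with DESeq2, -0.0015 with RLE scaling, -0.0096 with no filter, -0.0035 with the stricter filter, -0.0092 and -0.0092 on log2(FPKM + 1) with and without a filter, -0.0200 on log2(FPKM + 0.1), -0.138 with the replicate block and -0.024 with a term for sex. Cfb was at 0.0056 in the fit of 21 mice. With the replicate block Pomc was at 0.072, P2ry12 at -0.0298, Ank at -0.0033 and Il6 at 0.253. In the mice with Xist Fcrl1 was at -0.379, Casp1 at -0.024, C1s1 at -0.154, Ank at -0.012, Ciita at -0.072, Krt1 at 0.424, Sfn at -0.237 and the immediate early median at -0.267. The proliferation median was at 0.011 with the stricter filter.

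With a mouse left out, log2 fold changes ran from -0.041 to 0.532 for C1s1, -0.733 to 0.368 for Pomc, -0.025 to 0.108 for P2ry12, -0.497 to 0.047 for Hbb-bs, -0.043 to 0.296 for Penk, -0.0071 to 0.048 for Ank, -0.428 to 0.326 for Il6, -0.076 to 0.178 for Ciita, -0.127 to 0.092 for Slc2a5, -0.183 to 0.215 for Krt1, -0.097 to 0.321 for Sfn and -0.203 to 0.097 for Cfb. The medians ran from -0.0026 to 0.132 for oligodendrocyte precursors, -0.10 to 0.282 for immediate early genes and -0.166 to 0.0395 for proliferation.

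At this depth, genes with too few counts for the filter were not tested. The part of depth and of the number of mice in the calls was not tested.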

Other observations

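These genes were chosen after their values were seen. Tph2, the enzyme that makes serotonin in neurons, was called raised, at 0.537, 1.04 and 1.01 CPM in E4H 1 to 3 and 11.8, 9.21, 2.22 and 1.2 CPM in PS/E4H 1 to 4 (log2 fold change 2.82, adjusted p = 0.028). Among the PS/E4H mice, 1 and 2 were above 3 and 4, as for Slc6a4, while the E4H mice did not share an order. Ddc, a later enzyme of the same path that other neurons and glia also make, was at 13.2, 8.69 and 23.7 and 39.2, 45, 28.2 and 23.7 CPM (log2 fold change 1.16, adjusted p = 0.035).

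Some subunits of the phagocyte oxidase, which makes superoxide, are given here without the rest. Cyba was at 3.85, 3.9 and 5.16 CPM in E4H and 17.6, 16.4, 16.7 and 15.4 CPM in PS/E4H (log2 fold change 1.94, adjusted p = 4.4e-05), and Cybb and Ncf1 had log2 fold changes of 1.56 to 3.63. No groups overlapped in these genes.

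C3, the central complement component, was at 2.37, 1.38 and 2.59 and 171, 22.3, 11.1 and 27 CPM (log2 fold change 4.77, adjusted p = 0.0098), and PS/E4H 1 was far above the rest. C4b was at 47.3, 46.4 and 51.8 and 475, 286, 241 and 287 CPM (log2 fold change 2.73, adjusted p = 6.9e-05). Igkc, the kappa light chain of antibodies, was at 0.194, 0.279 and 0.256 and 18.6, 11.3, 0.633 and 2.78 CPM (log2 fold change 5.08, adjusted p = 0.011), high in PS/E4H 1 and 2 and low in PS/E4H 3.

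Gapdh, an enzyme of glycolysis often taken as constant, was called lowered, at 125, 126 and 217 CPM in E4H and 51, 92.2, 50.1 and 49.3 CPM in PS/E4H (log2 fold change -1.36, adjusted p = 0.0069). E4H 3 was the highest and PS/E4H 2 the highest of its group. Of the 50-base windows of its transcripts 24.7% also occur in another annotated gene, so where its reads were counted is uncertain. The clustered protocadherins Pcdhga1 and Pcdhac1, adhesion proteins of neurons that share their 3′ exons, had log2 fold changes of -1.19 to -1.11.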
